A study of Homo sapiens with 12 samples.

Results

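The response of PRMT1-depleted breast cancer cells to a progestin was measured by RNA-seq in 6 of the 12 libraries of the study, chosen by their labels. All libraries come from T47D, an established line of luminal breast cancer with receptors for progesterone and estrogen. In 3 libraries the cells had received an siRNA against PRMT1 and ethanol, the vehicle, for 6 h (siPRMT1 ethanol), and in the other 3 the same siRNA and 10 nM of R5020, a synthetic progestin, for 6 h (siPRMT1 R5020). The remaining 6 libraries are the same ethanol and R5020 treatments of cells with a control siRNA (siCT), 3 in each group, and are used here only where the response is set beside that of cells that keep PRMT1. Replicates are biological per the labels, whose titles name the ethanol libraries as time 0 while their treatment entries give 6 h. The cells grew in medium with serum and insulin, the siRNA lowers PRMT1 without removing it, and a single line was used, which limits the groups as a model of PRMT1 loss.

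Progestins bind the progesterone receptor, a ligand-activated transcription factor of the nuclear receptor family that binds palindromic hormone response elements in DNA. Its relatives, such as the glucocorticoid and mineralocorticoid receptors, bind the same elements, so the target genes of these receptors overlap. In breast epithelium progesterone drives lobular and alveolar growth, in part through paracrine signals and the prolactin pathway. PRMT1 places asymmetric dimethyl marks on arginines of histone H4 and of many other proteins, nuclear receptors and their coregulators among them.

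The 6 siPRMT1 libraries held between 26783525 and 33914316 counts. PRMT1 itself stood at 7.92, 8.38 and 8.38 CPM (counts-per-million, scaled by TMM, edgeR's correction for library composition) in the ethanol libraries and at 6.98, 6.89 and 7.37 in the R5020 libraries, against means of 37.5 ± 7.83 and 43 ± 6.89 in the siCT groups (SD, n = 3). The R5020 values lay below the ethanol values, and the difference did not pass the test (log2 fold change -0.22 ± 0.17 SE, edgeR adjusted p = 0.507). Luminal epithelial genes were found in every siPRMT1 library, from KRT18 at 4980 to 8570 CPM before TMM scaling down to TFF1 at 3.89 to 6.3. PTPRC and CD68, markers of leukocytes, had at most 1 count in any siPRMT1 library and LYZ, another, at most 3. COL1A2, a fibroblast collagen, had at most 1, while COL1A1 was found at 29.4 to 39.5 CPM on that scale. LUM, a stroma marker, had 16 to 52 counts, and ACTA2, a myoepithelial marker, was found at 7.05 to 9.0 CPM on that scale. Mitochondrially encoded genes took 32.5% to 33.8% of the counts with ethanol and 33.1% to 38.3% with R5020. A pair of siCT libraries stood apart, ethanol replicate 3 with 59.3% and R5020 replicate 1 with 52.4%, against 31.3% to 33.1% in the other siCT libraries. The biological coefficient of variation between replicates, which measures their spread beyond counting error, was 0.0463 for siPRMT1 ethanol and 0.0753 for siPRMT1 R5020, against 0.326 and 0.213 for siCT ethanol and siCT R5020.

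The fit over all 12 libraries shares one estimate of the spread between the siPRMT1 and the more variable siCT libraries. Counts over all genes and in the gene lists are therefore given from that fit and from a fit of the 6 siPRMT1 libraries alone. Of 55765 genes in the files, 17727 had enough counts to be tested. A gene was called, and is said to have risen or fallen, at an adjusted p under 0.05 over all genes tested in the 12-library fit. R5020 raised 1648 genes (9.3% of those tested) and lowered 1077 (6.08%), 2725 in all (15.4%), and 4488 genes (25.3%) had an unadjusted p under 0.05. The fit of the 6 siPRMT1 libraries tested 16759 genes and called 4007 up (23.9%) and 3806 down (22.7%). Leaving out the siCT pair that stood apart gave 2835 up (15.8%) and 2391 down (13.3%). Leaving out any 1 of the 6 siPRMT1 libraries gave 1168 to 1311 up and 616 to 663 down. Of the genes called over all 12 libraries, 961 were up and 520 down by more than 2-fold, and 316 were up and 97 down by more than 4-fold. The R5020 and ethanol libraries did not overlap in 4892 genes that were higher with R5020 (27.6%) and 4514 that were lower (25.5%). In a principal component analysis of the 6 libraries the first component held 90.6% of the variance and separated the treatments, and the second held 4.69%.

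The division into risen and fallen genes depends on the scaling. Without TMM, from library totals alone, 897 genes were called up (5.06%) and 1167 down (6.58%), and the median log2 fold change of all genes moved from -0.00361 to -0.175, a shift of -0.172. Fold changes below are on the TMM scale, and a gene near 0 on it lies about 0.172 lower on the scale of library totals. Against a fold of 1.5 rather than 0, the test called 768 genes up (4.33%) and 314 down (1.77%), or 1202 up (7.17%) and 727 down (4.34%) in the 6-library fit.

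**Figure D1:**
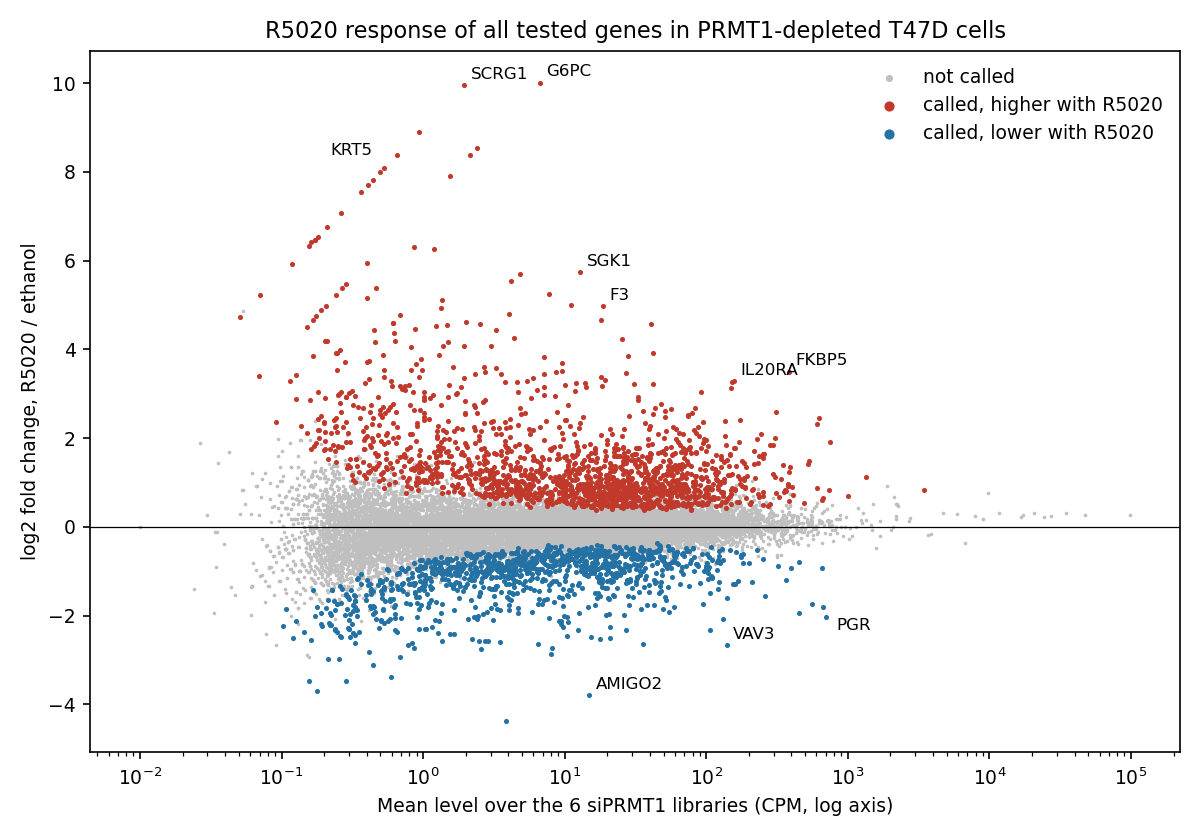
Log2 fold change of R5020 over ethanol in siPRMT1 cells (y axis) against the mean level over the 6 siPRMT1 libraries in CPM (x axis, log scale), 1 point per tested gene, with called genes in red (1648, higher with R5020) and blue (1077, lower). The genes that rose reach higher fold changes than those that fell, and FKBP5, PGR and VAV3 are among the called genes of high level.

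For genes that averaged 5 CPM or more, the highest fold change was that of G6PC, which releases free glucose from glucose 6-phosphate. It had 0, 0 and 1 counts in the ethanol libraries and 437, 367 and 397 with R5020. The ratio of the 2 groups was 1480, with an exact 95% counting interval of 265 to 58400. SGK1, a kinase that acts on sodium transport and is a classic target of the corticoid receptors, stood at 0.464, 0.452 and 0.49 CPM with ethanol and 25.4, 25.9 and 24.8 CPM with R5020. The 2 groups were far apart, with a 53.7-fold rise (log2 5.75 ± 0.20 SE, edgeR adjusted p = 2.03e-09). SEC14L2, a lipid transfer protein, went from 0.792, 0.506 and 0.707 to 21.7, 20.4 and 22.7 CPM, a 32.2-fold rise. F3, tissue factor, which starts the coagulation cascade, went from 1.06, 1.25 and 1.12 to 37.2, 35.8 and 35.3 CPM, 31.5-fold up. These genes were near the limit of expression without hormone and well expressed with it. Genes were ranked only where the R5020 and ethanol libraries did not overlap, so that separation follows from the choice.

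TRIM22, an E3 ligase known as interferon-induced, rose 25.5-fold, from 1.37 ± 0.222 to 35 ± 1.75 CPM (SD, n = 3). HSD11B2, which inactivates cortisol, rose 23.7-fold, with R5020 replicate 1 at 91.6 CPM above the other R5020 libraries at 69.7 and 75.0 CPM. Transcription factors were among the highest: PRDM1 (BLIMP-1) rose 14.3-fold and STAT5A, the main carrier of the prolactin signal, 11.2-fold. FKBP5, a cochaperone that binds the steroid receptors and damps them, was the most abundant of the 15 highest genes. It stood at 62.1, 61.6 and 62.9 CPM with ethanol and 687, 731 and 689.7 CPM with R5020 (log2 3.50 ± 0.23 SE, edgeR adjusted p = 2.79e-07). Others of the 15 highest were ATP8B3, ACOT6, SYBU, SOGA2 and ARHGAP26, which rose between 11-fold (ARHGAP26) and 18.7-fold (ATP8B3). The calls of the 15 highest and 15 lowest genes held in each fit that left out 1 of the 6 libraries and with library totals alone.

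Also among genes that averaged 5 CPM or more, the lowest fold change was that of AMIGO2, an adhesion molecule, at 27.7, 26.4 and 29.3 CPM with ethanol and 1.74, 2.04 and 2.24 CPM with R5020, 13.8-fold down (log2 -3.79 ± 0.24 SE, edgeR adjusted p = 2.66e-07). MECOM (EVI1) and MYB, both transcription factors, followed. MECOM fell 7.24-fold from 14.1 ± 0.489 CPM and MYB 6.58-fold from 14.2 ± 0.484 CPM (SD, n = 3). VAV3, an exchange factor for small GTPases, was the most abundant of the 15 lowest genes, at 234, 243 and 245 CPM with ethanol and 35.2, 41.9 and 36.5 CPM with R5020. Its 6.35-fold fall left the groups well separated. KITLG, the ligand of the KIT receptor, fell 5.71-fold, IL1R1, the interleukin-1 receptor, 5.02-fold, and PLK2, a polo-like kinase, 4.97-fold. NUAK2, SERTAD4, GPR158, TRERF1, PCED1B, TTC6, CHST1 and TESK2 fell between 4.75-fold (TESK2) and 6.19-fold (NUAK2).

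**Figure D2:**
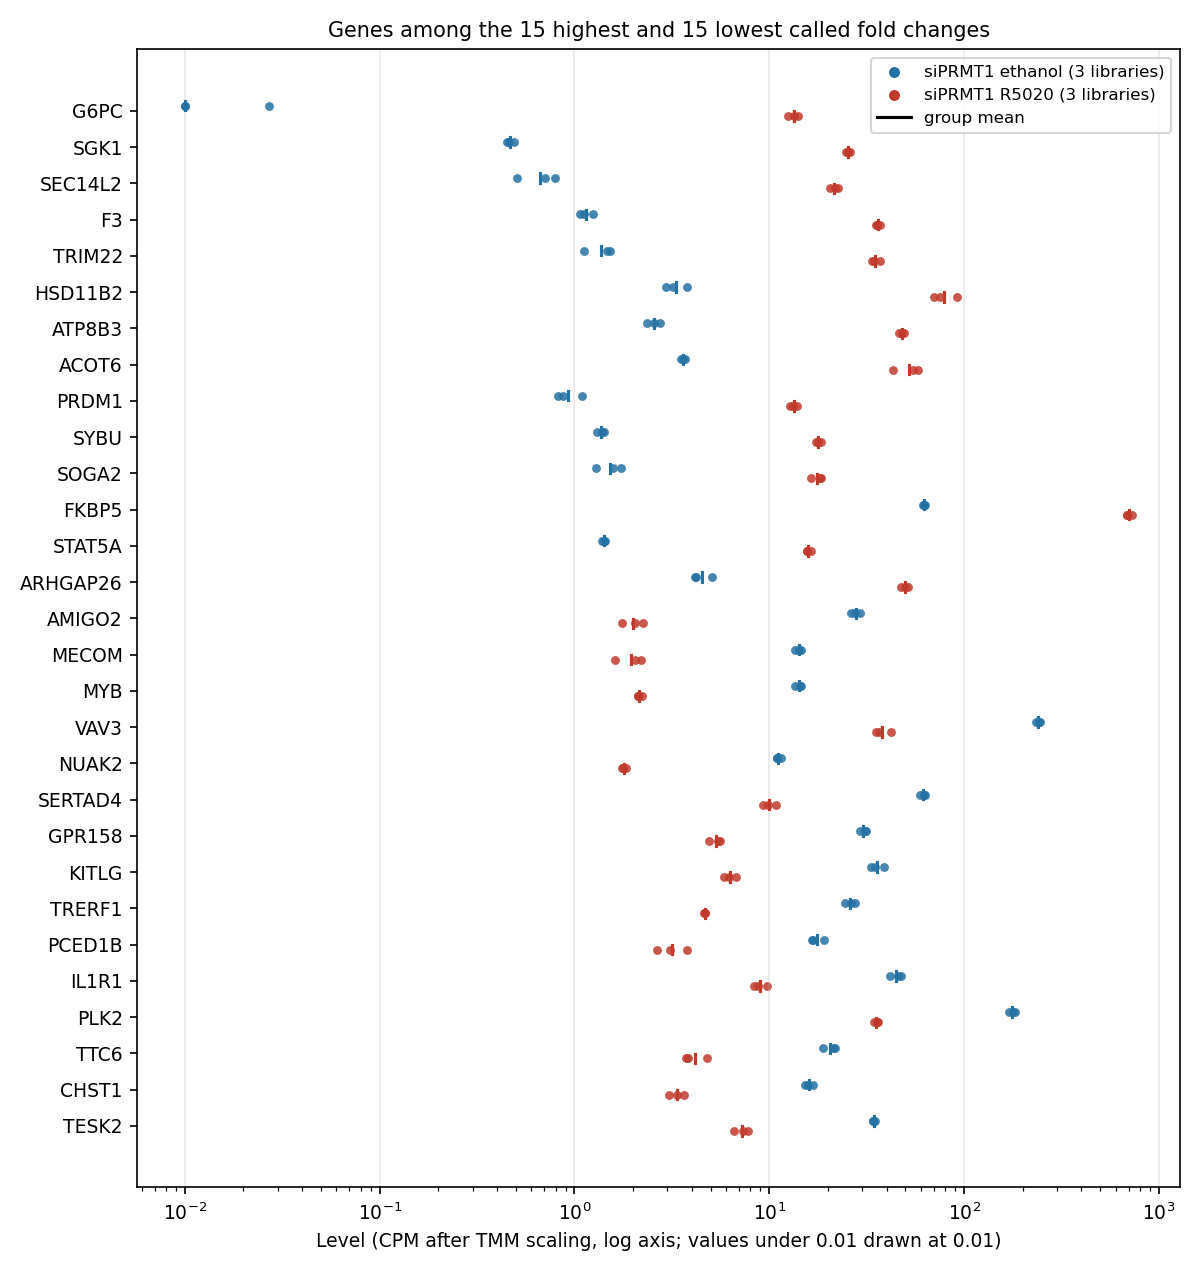
Level of genes among the 15 with the highest and the 15 with the lowest called fold change in each siPRMT1 library (x axis, CPM after TMM scaling, log scale), with ethanol in blue, R5020 in red and a bar at each group mean. The genes were chosen so that the 3 R5020 points are apart from the 3 ethanol points, and values under 0.01 are drawn at 0.01.

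A further group of genes had next to no reads without hormone. Of the called genes, 46 that rose had 3 or fewer counts over the 3 ethanol libraries together, and 4 that fell had 3 or fewer over the 3 R5020 libraries. Such genes had enough counts to be tested only through other groups, so both numbers depend on that rule. The share of such genes among all genes tested was not counted. SCRG1, first described in prion disease, had 0 counts in each ethanol library and 115, 119 and 116 with R5020, at least 48.1-fold higher against a floor of 3 counts per library. LINC01018, a long noncoding RNA, had 0 counts with ethanol and 44, 58 and 67 with R5020, at least 23.2-fold higher. PHACTR3, a regulator of protein phosphatase 1 and actin, went from 1 to 430 counts (ratio 529, exact 95% counting interval 94.5 to 21000), and CORO2B, an actin-binding coronin, from 1 to 388 (ratio 478, interval 85.2 to 18900). SEPT14, a septin, went from 1 to 277 counts (ratio 341, interval 60.7 to 13500). SDPR (cavin 2), a caveolar coat protein, went from 3 to 214 counts (ratio 87.8, interval 29.6 to 429), and SYT2, a synaptotagmin, from 2 to 156 (ratio 96.0, interval 26.1 to 800). KRT5, the keratin of basal epithelium, had 0 counts with ethanol and 96 over the R5020 libraries, at least 13.1-fold higher at a mean of 1.06 CPM. In the other direction the pseudogene WARS2P1 fell from 0.333 ± 0.0366 to 0.0229 ± 0.02 CPM (SD, n = 3), with 3 or fewer counts left. These are low levels in absolute terms, and intervals and floors cover counting error only.

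The promoters of the called genes were searched for the hormone response element that the progesterone receptor shares with its relatives. It has the letters GNACA, then any 3 bases, then TGTNC, which read the same on both strands. The search used RefSeq windows of 250 bases before to 50 bases after annotated gene starts (build GRCh38.p14). The exact element was found in 137 of 35116 windows (0.39%), and 2862 windows (8.15%) held it with at most 1 of its fixed bases changed. Of the 17727 genes tested, 11042 matched a window, and 39 of them held an exact element, among them 6 of the genes that rose and 3 of those that fell. Under 80% of the protein-coding genes that rose (79.9%) or fell (79.0%) had a window, so a comparison of these shares is void. A match is a description of the sequence and not evidence of binding. Some genes, such as DDX3X, have several annotated starts, and which start these cells use was not examined, also for the genes printed here. The 250 bases before the start are printed for the genes with an exact element before the start that rose most, RGS19 and GATA2, and that fell most, EPHA4 and PPARGC1A, to show the element in both kinds of promoter. They were chosen after their values were seen, and are given 5′ to 3′ along the gene with the element in capitals.
RGS19: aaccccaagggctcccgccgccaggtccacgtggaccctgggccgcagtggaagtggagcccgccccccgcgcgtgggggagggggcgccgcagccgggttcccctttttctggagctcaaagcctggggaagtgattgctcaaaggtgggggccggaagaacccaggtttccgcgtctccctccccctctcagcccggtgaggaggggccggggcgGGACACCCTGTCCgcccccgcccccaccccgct
GATA2: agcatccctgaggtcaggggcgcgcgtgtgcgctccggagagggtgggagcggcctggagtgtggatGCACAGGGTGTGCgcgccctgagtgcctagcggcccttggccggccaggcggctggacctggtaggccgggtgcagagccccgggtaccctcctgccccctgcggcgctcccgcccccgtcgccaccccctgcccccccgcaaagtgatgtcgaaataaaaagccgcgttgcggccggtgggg
EPHA4: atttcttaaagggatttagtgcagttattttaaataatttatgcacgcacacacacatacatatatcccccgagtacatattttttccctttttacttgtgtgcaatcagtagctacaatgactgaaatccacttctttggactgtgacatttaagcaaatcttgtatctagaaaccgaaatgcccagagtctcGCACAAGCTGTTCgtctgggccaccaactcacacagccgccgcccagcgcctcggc
PPARGC1A: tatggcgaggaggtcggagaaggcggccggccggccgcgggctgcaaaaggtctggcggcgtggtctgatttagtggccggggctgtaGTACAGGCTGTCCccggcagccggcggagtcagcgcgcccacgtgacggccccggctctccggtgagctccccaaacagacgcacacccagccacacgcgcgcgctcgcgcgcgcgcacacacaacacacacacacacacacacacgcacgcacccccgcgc
The windows lie at chr20:64079519-64079768, minus strand (RGS19), chr3:128493202-128493451, minus strand (GATA2), chr2:221574203-221574452, minus strand (EPHA4) and chr4:24472906-24473155, minus strand (PPARGC1A), with the first base of the element 33, 183, 56 and 162 bases before the start.

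RGS19, which shortens G protein signals, stood at 3.06, 3.59 and 3.81 CPM with ethanol and 8.63, 7.11 and 6.71 with R5020, a 2.14-fold rise (edgeR adjusted p = 0.00567). GATA2, a zinc finger factor, rose 1.96-fold from 8.66 ± 0.429 to 17 ± 1.34 CPM (SD, n = 3, edgeR adjusted p = 0.0119). EPHA4, an ephrin receptor, stood at 10.9, 11.2 and 10.4 CPM with ethanol and 3.65, 3.17 and 3.56 with R5020, 3.13-fold down (edgeR adjusted p = 0.00145). PPARGC1A, the coactivator PGC-1alpha of mitochondrial biogenesis, fell 5.9-fold, from 4.7, 4.18 and 3.97 to 0.84, 0.765 and 0.567 CPM. The libraries of the 2 groups did not overlap in any of these 4 genes.

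The response was further described through 44 gene lists that hold 1077 distinct genes, of which 949 were tested. Each list's counts are to be read against the 9.3% of all genes that rose and the 6.08% that fell, and counts of the 6-library fit against its 23.9% and 22.7%. That fit tested fewer members of some lists: 10 coagulation, 10 S100, 13 keratin, 13 EGF receptor family and 24 integrin and matrix genes. It also tested 26 TGF-beta, BMP and ID, 29 WNT and Notch, 36 glycolysis, 18 glucose output and 30 channel and pump genes. The median log2 fold change of all genes tested was -0.00361. G6PC, NRG2, KRT5 and ZBTB16, list members with 0 or 1 counts over the ethanol libraries, could be tested only through other groups. The shares of risen genes in their lists depend in part on that. Where a call is said to be lost without 1 siPRMT1 library, that fit still shared its spread with the more variable siCT libraries. In the fit of the 6 siPRMT1 libraries alone, 239 of the 241 named genes kept the result they had over 12 libraries. Besides the genes for which it is said in place, CDC20, CDKN2B, CHAC1, CRY2, DDIT4, HERC5, IFIT2, KIF23, KRT23, KRT4, MT2A, MYLIP, NFIL3, PER3, S100A10, SOX4, SP3 and TGIF1 were not called with library totals alone.

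**Figure D3:**
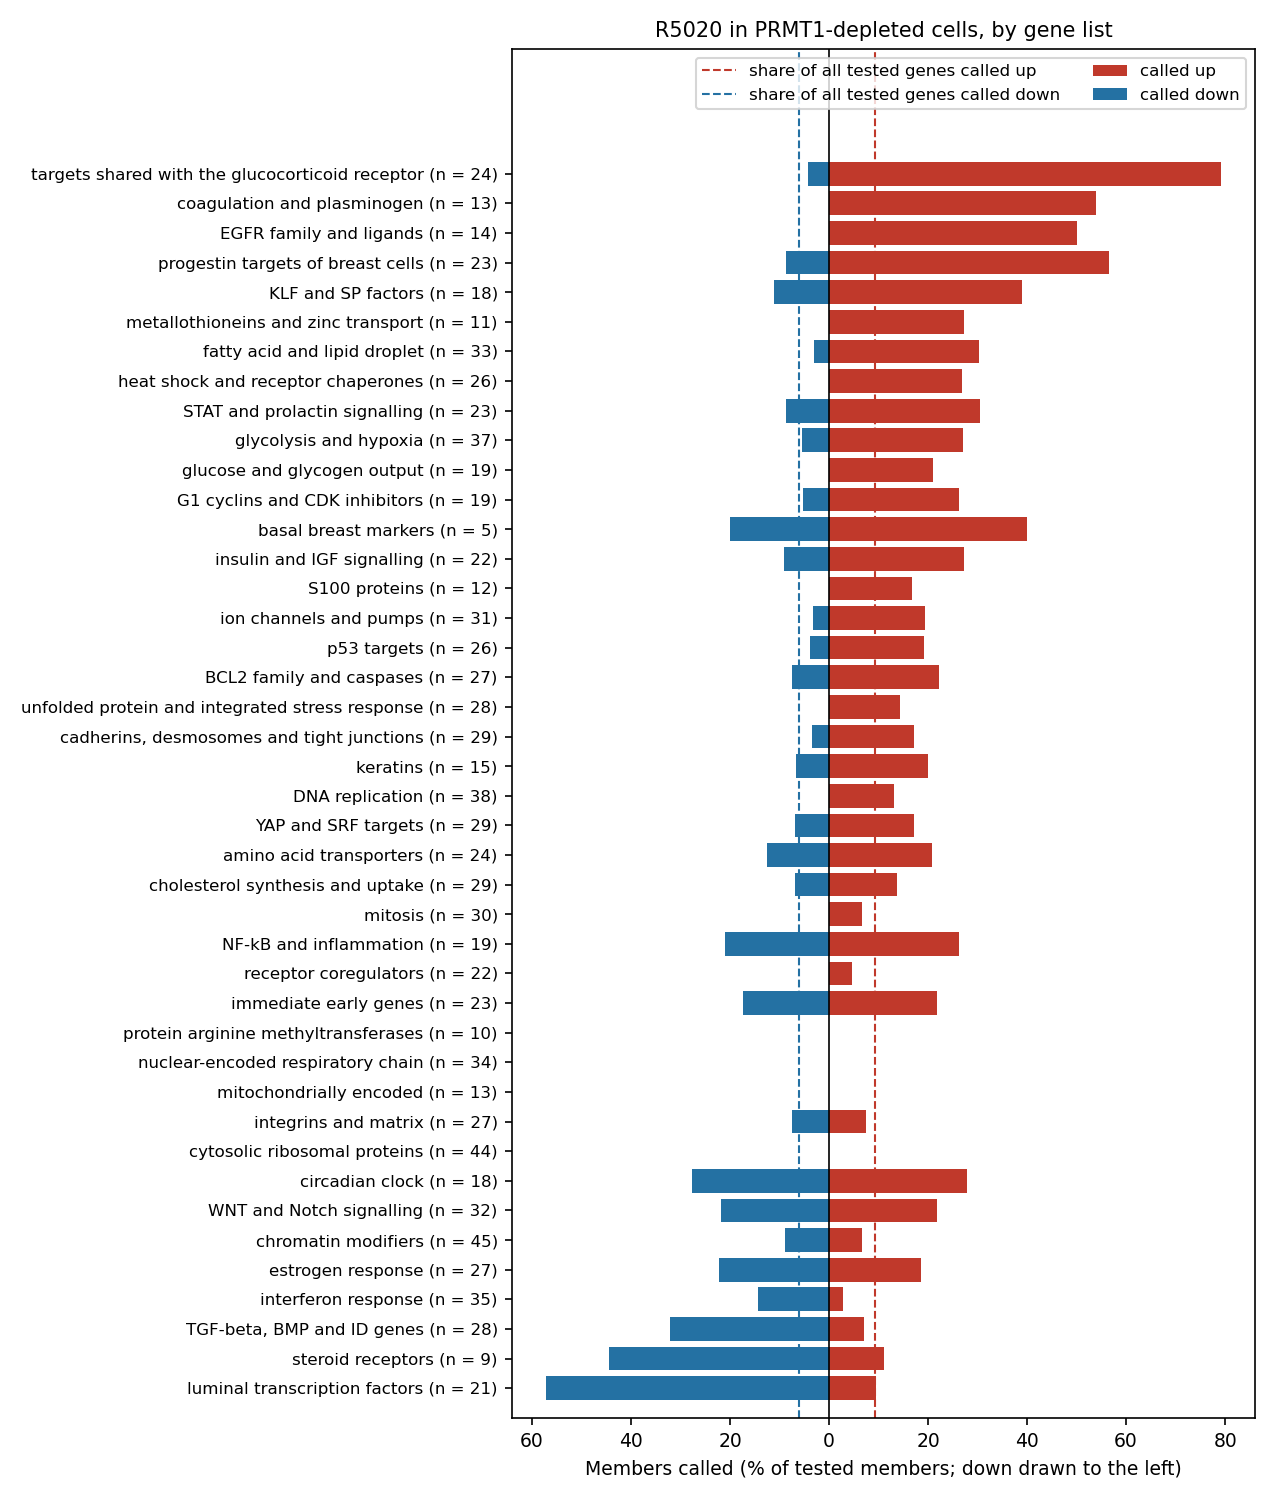
Share of the tested members of each gene list that rose (red, to the right) or fell (blue, to the left) with R5020 in siPRMT1 cells (x axis, percent of tested members), for lists with 5 or more tested members (n beside each name), with dashed lines at the shares of all tested genes. Targets shared with the glucocorticoid receptor reach furthest to the right (19 of 24 members) and luminal transcription factors furthest to the left (12 of 21).

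Among the steroid receptors and their kin, 1 of 9 rose and 4 fell, against 2 and 5 in the fit of the 6 siPRMT1 libraries, with a median log2 fold change of -0.50. PGR, the receptor of R5020, stood at 1106, 1134 and 1147 CPM with ethanol and 278, 282 and 265 CPM with R5020. The groups were well apart, with a 4.1-fold fall (log2 -2.04 ± 0.20 SE, edgeR adjusted p = 1.23e-05). ESR1, the estrogen receptor, went from 179, 172 and 176 to 66.3, 67.6 and 65.2 CPM, a 2.65-fold fall. NR3C1, the glucocorticoid receptor, fell 1.54-fold from 16.7 ± 0.0685 CPM, while ESRRA, an orphan receptor of energy metabolism, was the member that rose, 1.66-fold. NR3C1 and ESRRA lost their calls whichever of the 6 libraries was left out (edgeR adjusted p up to 0.152), and neither was called with library totals alone. The summed level of the list was 1580 to 1630 CPM in the ethanol libraries and 616 to 671 CPM in the R5020 libraries.

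Transcription factors of the luminal lineage were called downward more often than upward, without a test of the list. Of the 21 tested, 2 rose, 12 fell and 7 were not called, and the fit of the 6 siPRMT1 libraries called 2 up and 16 down (median log2 fold change -0.85). FOXA1, the pioneer factor that opens chromatin for steroid receptors, stood at 707, 711 and 732 CPM with ethanol and 188, 189.6 and 182 CPM with R5020 (3.85-fold down, log2 -1.94 ± 0.19 SE, edgeR adjusted p = 8.35e-06). GATA3, the master factor of the luminal fate, went from 839, 897 and 859 to 459, 455 and 454 CPM, a 1.9-fold fall. TFAP2A and TFAP2C, AP-2 factors, fell 1.91-fold and 1.84-fold, and the ETS factors EHF and ELF5, the latter a regulator of alveolar cells, 1.96-fold and 1.89-fold. MYB and GRHL3 fell 6.58-fold and 3.68-fold. The grainyhead factors went apart: GRHL2 rose 2.89-fold, from 62.8, 71.3 and 60.6 to 195, 181 and 186 CPM, and GRHL1 1.44-fold, while GRHL3 fell. ELF3 and OVOL1 fell by 0.59 and 0.86 on the log2 scale. ELF3 lost its call whichever of the 6 libraries was left out (edgeR adjusted p up to 0.156). OVOL1 lost its call without ethanol replicate 2 or 3 or R5020 replicate 2 or 3 (edgeR adjusted p up to 0.0896). With library totals alone GATA3, GRHL1, ELF3 and OVOL1 were not called, and the list had 1 member up and 10 down. XBP1, SPDEF, TBX3, PITX1, TRPS1, OVOL2 and TFAP2B were not called, with log2 fold changes between -0.48 (XBP1) and -0.12 (OVOL2).

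**Figure D4:**
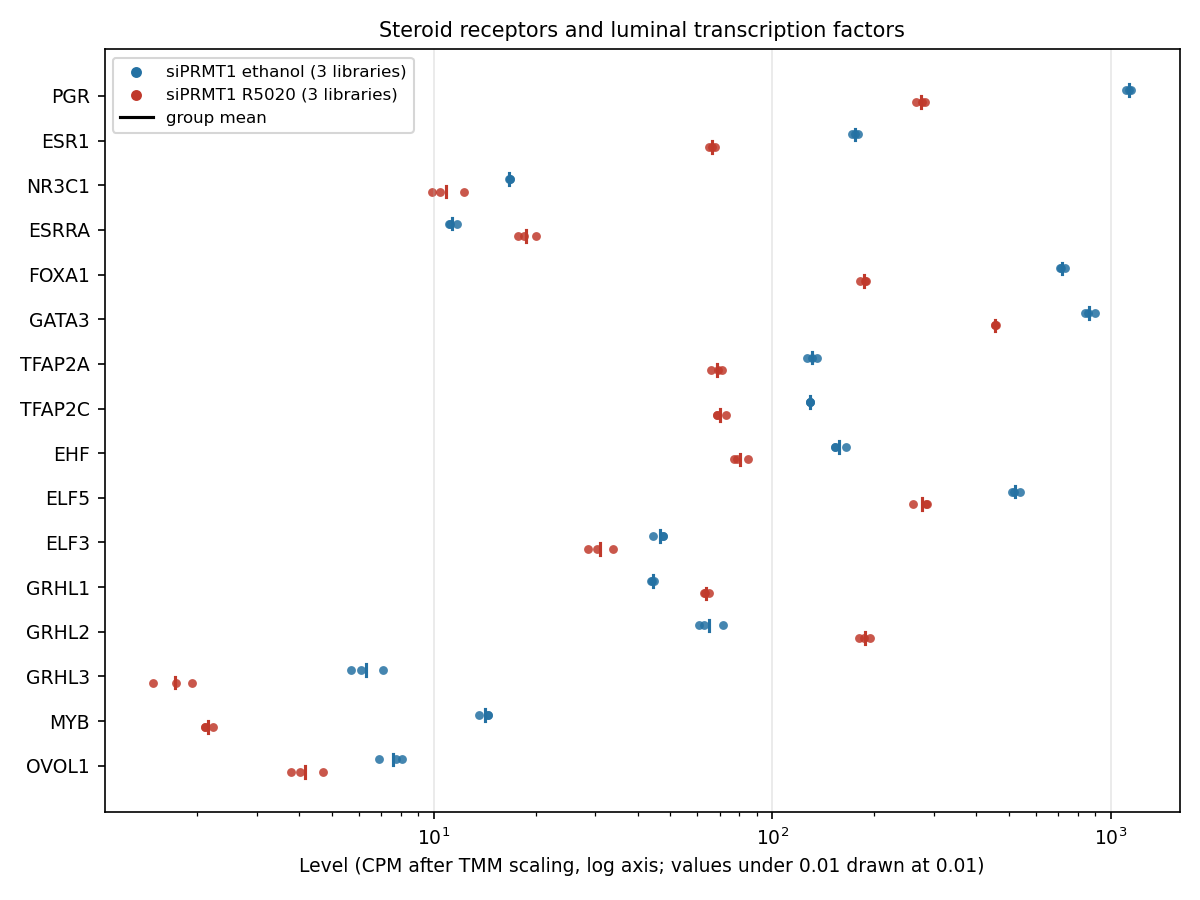
Level of called steroid receptors and luminal transcription factors in each siPRMT1 library (x axis, CPM after TMM scaling, log scale), with ethanol in blue, R5020 in red and a bar at each group mean. PGR, ESR1, FOXA1 and GATA3 lie to the left with R5020, and ESRRA, GRHL1 and GRHL2 to the right.

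Of the receptor coregulators 1 of 22 rose and 0 fell over 12 libraries, where 15.4% of all genes tested were called. The fit of the 6 siPRMT1 libraries called 7 up and 6 down, and the median log2 fold change was -0.06. The member that rose over 12 libraries was GREB1, a coactivator and known target of the estrogen receptor. It stood at 94.8, 106 and 103 CPM with ethanol and 332, 327 and 332 CPM with R5020, 3.26-fold up (edgeR adjusted p = 1.49e-05). NRIP1, a corepressor, missed the threshold at a log2 fold change of -0.56 ± 0.18 SE (edgeR adjusted p = 0.0534). Of the 10 tested genes for arginine methyltransferases and their partners, 0 were called over 12 libraries, with log2 fold changes between -0.38 (PRMT6) and 0.55 (WDR77, a partner of PRMT5), and the 6-library fit called 2 up and 4 down.

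Targets shared with the glucocorticoid receptor held the largest share of risen genes among the lists with a tested member. Of the 24 tested, 19 rose, 1 fell and 4 were not called, and the fit of the 6 siPRMT1 libraries called 20 up and 1 down (median log2 fold change 1.47), beside a summed level of 512 to 530 CPM with ethanol and 1780 to 1820 CPM with R5020. Besides SGK1, FKBP5 and HSD11B2, KLF15, a factor of amino acid and glucose metabolism, went from 0.437, 0.506 and 0.354 to 8.76, 8.56 and 7.66 CPM (19.1-fold). CEBPD, a bZIP factor, went from 7.51, 8.12 and 8.73 to 73.5, 78.8 and 75.4 CPM (9.34-fold), and PDK4, which shuts off pyruvate dehydrogenase, from 1.99, 1.81 and 2.04 to 15.2, 15.1 and 15.1 CPM (7.75-fold). TSC22D3 (GILZ) rose 3.16-fold, PER1 4.7-fold and NFKBIA 3.38-fold. ZBTB16 (PLZF), a zinc finger factor, had 0 counts with ethanol and 90 over the R5020 libraries, at least 12.3-fold higher. CRISPLD2 was the exception and fell 1.79-fold. CRISPLD2 lost its call without ethanol replicate 2 or R5020 replicate 1 or 2 or 3 (edgeR adjusted p up to 0.0845). SCNN1A, MT1X, SCNN1B and ANGPTL4 were not called. The list was assembled with earlier results of these data known, so its direction is not independent evidence.

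Genes known as progestin targets of breast cells followed in part: 13 of 23 rose and 2 fell, against 13 and 5 in the fit of the 6 siPRMT1 libraries, with a median log2 fold change of 0.84. Besides STAT5A and F3, TFCP2L1 rose 8.84-fold and S100P, a calcium-binding protein, went from 88, 85.8 and 88.9 to 539, 508 and 544 CPM (6.06-fold). RUNX1 rose 3.16-fold, and CCND1, cyclin D1, went from 57.2, 68.1 and 66.3 to 205, 187 and 186 CPM (3.01-fold, edgeR adjusted p = 1.59e-05). ELF5 and CALCR, the calcitonin receptor, fell 1.89-fold and 1.59-fold. CALCR lost its call whichever of the 6 libraries was left out (edgeR adjusted p up to 0.145). WNT4 and AREG, paracrine signals of the mammary gland, were not called at log2 fold changes of -0.20 ± 0.26 SE and -0.04 ± 0.37 SE, and had about 1 CPM in each library.

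In STAT and prolactin signalling 7 of 23 rose and 2 fell, against 10 and 9 in the fit of the 6 siPRMT1 libraries, with a median log2 fold change of 0.05. JAK2, the kinase of the prolactin receptor, went from 4.7, 4.66 and 5.69 to 14.2, 16.1 and 15.6 CPM (3.05-fold), STAT5B rose 1.83-fold and PIM2, a kinase induced by STAT5, 6.43-fold. IL6ST, the shared receptor chain gp130, went from 267, 271 and 299 to 763, 849 and 746 CPM (2.82-fold). The members that fell are feedback inhibitors of the pathway: CISH went from 24.6, 24.7 and 23.3 to 14, 10.1 and 10.6 CPM and SOCS3 from 1.4 ± 0.284 to 0.47 ± 0.114 CPM (SD, n = 3). SOCS3 lost its call without R5020 replicate 1 (edgeR adjusted p = 0.0503). The prolactin receptor gene PRLR was not called (log2 -0.16 ± 0.25 SE).

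In the EGF receptor family, its ligands and regulators 7 of 14 rose and 0 fell, against 7 and 3 in the fit of the 6 siPRMT1 libraries, with a median log2 fold change of 0.97. EGFR stood at 20.1, 20.7 and 20.5 CPM with ethanol and 99.6, 96.8 and 94.5 CPM with R5020 (4.75-fold, log2 2.25 ± 0.30 SE, edgeR adjusted p = 0.000139). Its ligands EGF, TGFA and HBEGF rose 3.02-fold, 2.34-fold and 2.29-fold, and NRG2 went from 1 to 26 counts over 3 libraries (ratio 32.0, exact 95% counting interval 5.26 to 1310). The inhibitors ERRFI1 and LRIG1 rose 2.01-fold and 2.45-fold. ERBB2, ERBB3 and ERBB4 were not called in the 12-library fit, at log2 fold changes of -0.71, -0.65 and -0.48, and with library totals alone the list had 7 members up and 3 down. HBEGF lost its call without ethanol replicate 1 or 2 or 3 or R5020 replicate 1 or 3 (edgeR adjusted p up to 0.081).

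Insulin and IGF signalling moved in both directions: 6 of 22 rose and 2 fell, against 8 and 7 in the fit of the 6 siPRMT1 libraries, with a median log2 fold change of -0.02. FOXO1, a factor that insulin restrains, rose 3.19-fold and GRB10, an inhibitor of the insulin receptor, 2.46-fold, while PIK3R3, a regulatory subunit of PI3 kinase, went from 73.3, 75.8 and 82.2 to 21.1, 22.2 and 20.8 CPM (3.61-fold down). IGFBP5, an IGF-binding protein, was the most abundant called member and went from 493, 524 and 517 to 228, 223 and 219.8 CPM, 2.29-fold down. IRS1 and IRS2 were not called.

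Among G1 cyclins and inhibitors of cyclin-dependent kinases 5 of 19 rose and 1 fell, against 11 and 3 in the fit of the 6 siPRMT1 libraries, with a median log2 fold change of 0.23. CCND1, CCNE2 (cyclin E2, 2.06-fold) and E2F1 (1.72-fold) rose together with the inhibitors CDKN1A (p21), from 71.9, 71.2 and 72.5 to 164, 161 and 158 CPM, and CDKN1C (p57), from 1.58 ± 0.209 to 4.92 ± 0.186 CPM (SD, n = 3). With library totals alone CCNE2, CDKN1A and E2F1 were not called and CCND1 and CDKN1C were, and 0 of the list fell. CDKN2B (p15) fell 1.58-fold. CDKN2B lost its call without ethanol replicate 1 or 2 or 3 or R5020 replicate 1 or 3 (edgeR adjusted p up to 0.118). MYC was not called at a log2 fold change of 0.19 ± 0.13 SE.

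In DNA replication 5 of 38 rose and 0 fell, against 16 and 0 in the fit of the 6 siPRMT1 libraries, with a median log2 fold change of 0.18. GINS2, a subunit of the replicative helicase, stood out at 21.2, 21.6 and 24.5 CPM with ethanol and 119, 129 and 134 CPM with R5020 (5.68-fold, edgeR adjusted p = 9.19e-06). POLE2, a subunit of DNA polymerase epsilon, rose 2.08-fold, and CDC6, MCM5 and MCM7, which load or form the helicase, 1.59-fold, 1.65-fold and 1.39-fold. GINS2 was the member still called with library totals alone, and 0 fell there. MCM7 lost its call whichever of the 6 libraries was left out (edgeR adjusted p up to 0.182). Of the mitosis genes 2 of 30 tested members rose and 0 fell (6-library fit 5 and 7, median -0.05), and the members that rose were KIF23 (1.38-fold) and CDC20 (1.68-fold). KIF23 and CDC20 lost their calls whichever of the 6 libraries was left out (edgeR adjusted p up to 0.123).

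Immediate early genes, which respond within minutes to growth signals, moved in both directions at 6 h: 5 of 23 rose and 4 fell, against 8 and 8 in the fit of the 6 siPRMT1 libraries, with a median log2 fold change of 0.01. FOSL2 rose 2.74-fold, ZFP36 3.05-fold and the phosphatase DUSP4 2.56-fold, while DUSP5 went from 24.3, 26.4 and 25.4 to 9.63, 7.98 and 9.36 CPM and EGR1 from 4.72, 4.74 and 4.79 to 2, 1.86 and 1.76 CPM, 2.82-fold and 2.53-fold down. IER2 fell 1.73-fold. FOS, JUN and JUNB were not called. The list had 4 members up and 6 down with library totals alone. Of the Krüppel-like and SP factors, 7 of 18 tested members rose and 2 fell (6-library fit 10 and 4, median 0.43). KLF4, a factor of epithelial differentiation, went from 34.1, 35.8 and 34.2 to 147, 141 and 146 CPM (4.16-fold, edgeR adjusted p = 1.46e-07), and KLF5 and KLF9 rose 3.3-fold and 2.29-fold. KLF12 and SP3 fell 2.62-fold and 1.79-fold. SP3 lost its call without R5020 replicate 3 (edgeR adjusted p = 0.0513). Of the Krüppel-like and SP factors, 4 rose and 1 fell with library totals alone.

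Genes of the estrogen response were divided: 5 of 27 rose and 6 fell, against 10 and 13 in the fit of the 6 siPRMT1 libraries, with a median log2 fold change of -0.18. GREB1 and CCND1 were joined by AGR3, a disulfide isomerase, which went from 16.7, 13.7 and 15.4 to 38.2, 48.7 and 43.7 CPM (2.85-fold), and by SERPINA3, which rose from 0.0632 ± 0.0162 to 0.505 ± 0.116 CPM (SD, n = 3). OLFM1, an olfactomedin, fell 2.2-fold, from 45.7, 44 and 42.9 to 20.1, 19.8 and 20.5 CPM. BCL2, the anti-apoptotic gene, fell 4.86-fold at a low level, from 0.82 ± 0.239 to 0.163 ± 0.139 CPM. CXCL12, a chemokine, went from 135, 135 and 139.9 to 76.1, 70.7 and 70.9 CPM, 1.88-fold down. CXCL12 lost its call without R5020 replicate 2 or 3 (edgeR adjusted p up to 0.0579). Of the estrogen response genes, 3 fell without R5020 replicate 3. TFF1, a classic estrogen target, was not called (log2 -0.39 ± 0.21 SE).

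In NF-kB signalling and inflammation 5 of 19 rose and 4 fell, against 7 and 8 in the fit of the 6 siPRMT1 libraries, with a median log2 fold change of -0.20. The members that rose include inhibitors of the pathway: NFKBIA (IkBalpha) went from 33.8, 35.7 and 34.3 to 127, 104 and 119 CPM, NFKBIE rose 2.86-fold and BIRC3, an inhibitor of apoptosis, 4.32-fold. IL1R1 fell with TNFRSF11A, the receptor RANK, which went from 12.7, 13.1 and 12.5 to 3.46, 4.52 and 3.97 CPM (3.21-fold down), and TNFSF10 (TRAIL) fell 2.57-fold. TNFSF10 lost its call without R5020 replicate 1 or 2 or 3 (edgeR adjusted p up to 0.0579). Of the NF-kB and inflammation genes, 2 fell without R5020 replicate 1 or 2 or 3, and 3 rose and 5 fell with library totals alone. In the interferon response 1 of 35 rose and 5 fell, against 5 and 20 in the fit of the 6 siPRMT1 libraries, with a median log2 fold change of -0.17. MX2 fell 1.97-fold, IFIT2 went from 83.8, 84.5 and 85.7 to 52.3, 54.5 and 55.6 CPM, 1.56-fold down, and HERC5 rose 1.67-fold. IFIT2 lost its call without R5020 replicate 1 (edgeR adjusted p = 0.0551). HERC5 lost its call without ethanol replicate 1 or 2 or R5020 replicate 1 or 3 (edgeR adjusted p up to 0.0659). IRF9 and ISG15 were not called, with log2 fold changes of -0.14 and 0.10. Of the interferon response genes, 1 to 3 fell without ethanol replicate 1 or 3 or R5020 replicate 1 or 2 or 3, and 0 rose and 3 fell with library totals alone.

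In TGF-beta, BMP and ID genes 2 of 28 rose and 9 fell, against 4 and 13 in the fit of the 6 siPRMT1 libraries, with a median log2 fold change of -0.27. BMP4, a ligand, stood at 39.6, 42.9 and 42.4 CPM with ethanol and 8.98, 11.9 and 10.7 CPM with R5020 (3.95-fold down, log2 -1.98 ± 0.18 SE, edgeR adjusted p = 5.25e-06). BMPR1B, a BMP receptor, fell 4.9-fold, SMAD3, which carries the TGF-beta signal, 2.27-fold, and the inhibitors SMAD7, SMAD6 and BAMBI 2.61-fold, 2.75-fold and 2.8-fold. BAMBI was the most abundant of these, at 162, 152 and 156 CPM with ethanol and 57.2, 55.5 and 55.1 CPM with R5020. TGIF1, a corepressor of SMADs, and TGFBR3, a coreceptor, rose 1.86-fold and 2.28-fold. ID1, ID3 and ID4 were not called, and ID2 fell 1.65-fold. Of the TGF-beta, BMP and ID genes, 1 rose and 10 fell with library totals alone.

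Of the WNT and Notch genes, 7 of 32 tested members rose and 7 fell (6-library fit 8 and 9, median -0.00). LEF1, which mediates WNT signals in the nucleus, went from 7.23, 7.26 and 7.86 to 33.6, 36.4 and 33.5 CPM (4.62-fold), whereas its relative TCF7L2 fell 2.1-fold and RNF43, which removes WNT receptors, went from 30.0, 31.7 and 32.4 to 8.27, 7.8 and 7.81 CPM (3.94-fold down). The receptors FZD1 and FZD5 rose 3.02-fold and 2.4-fold. NOTCH2 went from 199.9, 209 and 197 to 991, 1032 and 1002 CPM (4.99-fold) and its ligand JAG1 rose 5.96-fold, while HES1, a Notch target, went from 368, 373 and 419.6 to 120.5, 147 and 125 CPM (2.95-fold down). Circadian clock genes moved in both directions: 5 of 18 rose and 5 fell, against 6 and 9 in the fit of the 6 siPRMT1 libraries, with a median log2 fold change of -0.22. PER1 and PER2 rose 4.7-fold and 2.41-fold, and PER3 fell 1.59-fold. CRY2, NFIL3 and C1orf51 (CIART) rose 1.95-fold, 2.06-fold and 2.86-fold. CLOCK and ARNTL were not called. Of the clock genes, 1 to 3 fell without ethanol replicate 1 or 2 or 3 or R5020 replicate 2 or 3, and 3 rose and 1 fell with library totals alone.

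Genes of glucose use rose in part: in glycolysis and hypoxia 10 of 37 rose and 2 fell, against 20 and 3 in the fit of the 6 siPRMT1 libraries, with a median log2 fold change of 0.29. PFKFB3, which makes the activator of phosphofructokinase, went from 15.6, 14.7 and 15.9 to 98.6, 93.7 and 99.5 CPM (6.32-fold, edgeR adjusted p = 2.78e-08). SLC2A1 (GLUT1), the main glucose transporter, went from 45.1, 44.7 and 50.6 to 158, 156 and 144 CPM (3.26-fold), and BNIP3 and HK2, hexokinase 2, rose 3.1-fold and 1.86-fold. GAPDH, ENO1 and PKM, enzymes further down the pathway, were not called, at 0.19, 0.13 and 0.00 on the log2 scale. PFKM and PFKFB2 fell 1.8-fold and 1.42-fold. In glucose and glycogen output 4 of 19 rose and 0 fell, against 11 and 2 in the fit of the 6 siPRMT1 libraries, with a median log2 fold change of 0.19. Besides G6PC, the members that rose were PYGB, GYS1 and PPP1R3C, which break down, make and regulate glycogen. PYGB and GYS1 rose 1.91-fold and 1.79-fold, and PPP1R3C from 0.369 ± 0.133 to 1.42 ± 0.197 CPM (SD, n = 3). With library totals alone HK2, PFKFB2, PYGB and GYS1 were not called. Of the glycolysis and hypoxia genes, 7 rose and 1 fell with library totals alone. Of the glucose and glycogen output genes, 2 rose and 0 fell with library totals alone.

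Lipid storage genes were among those that rose. In fatty acid and lipid droplet genes 10 of 33 rose and 1 fell, against 16 and 4 in the fit of the 6 siPRMT1 libraries, with a median log2 fold change of 0.25. HILPDA and PLIN2, both proteins of lipid droplets, went from 53.4, 54.6 and 57.1 to 306, 277 and 293 CPM (5.31-fold) and from 27.6, 27.7 and 28.9 to 81.3, 92.3 and 90.2 CPM (3.14-fold). ACSL1, which activates fatty acids, went from 71.1, 68.1 and 73.5 to 221, 256 and 254 CPM (3.44-fold), and DGAT2, which makes triglycerides, rose 2.23-fold. GPAM fell 1.51-fold. GPAM lost its call whichever of the 6 libraries was left out (edgeR adjusted p up to 0.0914). Of the fatty acid and lipid droplet genes, 5 to 6 rose without any 1 of the 6 siPRMT1 libraries, and 8 rose and 2 fell with library totals alone. In cholesterol synthesis and uptake 4 of 29 rose and 2 fell, against 17 and 5 in the fit of the 6 siPRMT1 libraries, with a median log2 fold change of 0.22. MYLIP, which marks lipoprotein receptors for removal, and INSIG2, which restrains the pathway, fell 1.71-fold and 2.31-fold. INSIG2 lost its call without R5020 replicate 3 (edgeR adjusted p = 0.0502). Of the cholesterol genes, 0 to 2 rose without any 1 of the 6 siPRMT1 libraries.

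Heat shock proteins and receptor chaperones were called upward where they were called: 7 of 26 rose and 0 fell, against 15 and 0 in the fit of the 6 siPRMT1 libraries, with a median log2 fold change of 0.21. DNAJB4 and DNAJB1, partners of HSP70, went from 4.45, 3.62 and 4.19 to 22.7, 24 and 22 CPM (5.6-fold) and from 70.2, 72.9 and 75.1 to 214, 199.7 and 202 CPM (2.82-fold), and BAG3 rose 2.82-fold. HSP90AA1, HSP90AB1 and FKBP4, which hold the unliganded receptor, were not called, at 0.11, 0.15 and 0.02 on the log2 scale. In the unfolded protein and integrated stress response 4 of 28 rose and 0 fell, against 11 and 4 in the fit of the 6 siPRMT1 libraries, with a median log2 fold change of 0.12. VLDLR, DDIT4, CHAC1 and ERN1 rose, VLDLR the most (2.9-fold), and HSPA5, DDIT3 and ATF4 were not called. CHAC1 and ERN1 lost their calls whichever of the 6 libraries was left out (edgeR adjusted p up to 0.132). Of the stress response genes, 2 rose without any 1 of the 6 siPRMT1 libraries, and 2 rose and 3 fell with library totals alone. Of the heat shock and chaperone genes, 4 rose and 0 fell with library totals alone.

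Among ion channels and pumps 6 of 31 rose and 1 fell, against 12 and 10 in the fit of the 6 siPRMT1 libraries, with a median log2 fold change of 0.05. ATP1B1, a beta subunit of an ion pump, went from 91.9, 90.6 and 94.5 to 363, 364 and 359.7 CPM (3.92-fold, log2 1.97 ± 0.28 SE, edgeR adjusted p = 0.000256). SCNN1G, the gamma subunit of the epithelial sodium channel, rose 4.24-fold and KCNJ11, a potassium channel, 9.2-fold, while KCNK5 fell 5-fold from 1.06 ± 0.143 CPM (SD, n = 3). Of the channel and pump genes, 2 fell without ethanol replicate 1, and 7 rose and 7 fell with library totals alone. Of the amino acid transporters, 5 of 24 tested members rose and 3 fell (6-library fit 9 and 6, median 0.14). SLC6A6, which carries taurine, went from 25.5, 26.7 and 26.3 to 113, 114 and 108 CPM (4.26-fold up), and SLC1A2 and SLC6A14 fell 4.25-fold and 3.78-fold. In metallothioneins and zinc transport 3 of 11 rose and 0 fell, against 5 and 2 in the fit of the 6 siPRMT1 libraries, with a median log2 fold change of 0.26. SLC39A14, a zinc and iron importer, rose 2.84-fold and MT2A 1.81-fold. Of the metallothionein and zinc genes, 1 rose and 0 fell with library totals alone.

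Of the p53 targets, 5 of 26 tested members rose and 1 fell (6-library fit 8 and 3, median 0.07), among them GADD45A (2.43-fold), AEN (2.55-fold) and CDKN1A, while MDM2 was not called (log2 -0.03 ± 0.15 SE). Of the p53 targets, 4 rose and 0 fell with library totals alone. In the BCL2 family and caspases 6 of 27 rose and 2 fell, against 10 and 7 in the fit of the 6 siPRMT1 libraries, with a median log2 fold change of 0.05. BCL2L1 (BCL-XL), which protects cells, went from 175, 171 and 198 to 411, 402 and 424 CPM (2.27-fold), and BMF and BCL2L11 (BIM), which promote death, rose 2.39-fold and 1.94-fold. BMF was called with library totals alone, and BCL2L1 and BCL2L11 were not. Of the BCL2 family and caspases, 1 fell without ethanol replicate 3 or R5020 replicate 1, and 1 rose and 1 fell with library totals alone.

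Among cadherins, desmosomes and tight junctions 5 of 29 rose and 1 fell, against 10 and 9 in the fit of the 6 siPRMT1 libraries, with a median log2 fold change of 0.03. PKP1, a desmosome plaque protein, went from 0.191, 0.186 and 0.218 to 4.94, 4.77 and 4.73 CPM (23.8-fold), and PKP2 from 26.6, 22.6 and 25.3 to 57.6, 61.4 and 58.3 CPM (2.38-fold). CLDN1, a claudin of tight junctions, was abundant and went from 828, 853 and 874 to 263, 259.9 and 249 CPM (3.31-fold down, edgeR adjusted p = 0.00116). CDH1, E-cadherin, was not called at -0.20 ± 0.29 SE on the log2 scale. Of the cadherin and junction genes, 3 rose without ethanol replicate 2 or 3 or R5020 replicate 3, and 4 rose and 2 fell with library totals alone. Of integrin and matrix genes 2 of 27 tested members rose and 2 fell (6-library fit 3 and 9, median -0.19). THBS1, thrombospondin, went from 27.8, 32.2 and 31.7 to 120.0, 119 and 119.8 CPM (3.91-fold), LAMA3 rose 3.35-fold, and the integrins ITGA2 and ITGB6 fell 2.06-fold and 2.19-fold. ITGB6 lost its call without ethanol replicate 3 or R5020 replicate 3 (edgeR adjusted p up to 0.06). Of the integrin and matrix genes, 2 rose and 4 fell with library totals alone.

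In coagulation and plasminogen activation 7 of 13 rose and 0 fell, against 7 and 2 in the fit of the 6 siPRMT1 libraries, with a median log2 fold change of 0.80. Besides F3, F2R, the thrombin receptor, rose from 0.388 ± 0.113 to 4.26 ± 0.488 CPM (10.9-fold), SERPINE2 3.49-fold and PLAUR, the urokinase receptor, 2.15-fold. ANXA2 and S100A10, which together bind plasminogen, went from 448, 433 and 396 to 798, 743 and 788 CPM and from 855, 810.3 and 856 to 1725, 1854 and 1901 CPM. S100A10 lost its call without ethanol replicate 1 or 2 or 3 or R5020 replicate 3 (edgeR adjusted p up to 0.0627). Of the coagulation and plasminogen genes, 6 rose and 2 fell with library totals alone. Of YAP and SRF targets 5 of 29 tested members rose and 2 fell (6-library fit 17 and 4, median 0.26). VCL, vinculin, went from 120.4, 123 and 126 to 428, 460.4 and 446 CPM (3.61-fold), CYR61 from 38.8, 40.7 and 41.4 to 173, 130.5 and 145 CPM (3.71-fold) and CALD1 rose 2.84-fold. CTGF was not called at 1.06 ± 0.71 SE on the log2 scale. AMOTL2 and TPM4 were the members that fell. Of the YAP and SRF targets, 0 to 1 fell without any 1 of the 6 siPRMT1 libraries, and 3 rose and 0 fell with library totals alone. Of the S100 proteins, 2 of 12 tested members rose and 0 fell (6-library fit 5 and 2, median 0.03), and those that rose were S100P and S100A10. Of the S100 genes, 1 rose and 0 fell with library totals alone.

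Keratins and basal markers are described without a test for a change of cell type. Of the keratins, 3 of 15 tested members rose and 1 fell (6-library fit 3 and 4, median -0.08). KRT16 and KRT4 rose at low levels, from 0.586 ± 0.177 to 2.04 ± 0.443 CPM and from 1.15 ± 0.151 to 2.54 ± 0.391 CPM (SD, n = 3), and KRT23 fell 1.77-fold. KRT23 lost its call without ethanol replicate 1 or R5020 replicate 1 (edgeR adjusted p up to 0.077). Of the keratin genes, 2 rose and 0 fell with library totals alone. The luminal keratins KRT8, KRT18 and KRT19 were not called, at -0.07, -0.37 and 0.00 on the log2 scale. Of 12 basal breast markers 5 were tested, KRT5 and NGFR rose and TP63, a master factor of basal cells, fell from 0.758 ± 0.149 to 0.176 ± 0.0394 CPM, against 2 up and 2 down in the 6-library fit. The summed level of the tested basal markers was 28.9 to 29.4 CPM with ethanol and 23.1 to 25.4 CPM with R5020. KRT14, KRT6A and KRT17 had at most 4 counts in any siPRMT1 library. KRT5, with 0 counts with ethanol, could be tested only through other groups. The shares of keratins and basal markers that rose therefore depend on which genes were tested. In bulk RNA a change in every cell and a change in the share of some cells cannot be told apart. Of 12 stroma and endothelium markers 3 were tested and 0 called over 12 libraries (1 down in the 6-library fit), and 0 of 11 leukocyte markers had enough counts to be tested.

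Among chromatin modifiers 3 of 45 rose and 4 fell over 12 libraries, where 15.4% of all genes tested were called. The fit of the 6 siPRMT1 libraries called 13 up and 11 down, and the median log2 fold change was 0.01. HDAC9, a class IIa deacetylase, went from 4.26, 4.42 and 4.76 to 0.775, 0.619 and 0.599 CPM (6.7-fold down), with its relatives HDAC5 and HDAC4 1.62-fold and 1.66-fold down. KDM4B, a demethylase of histone H3 lysine 9 and partner of steroid receptors, went from 26.3, 30.6 and 29.4 to 97.2, 87.6 and 90.3 CPM (3.19-fold). TET1 fell 2.3-fold. HDAC5 lost its call without ethanol replicate 1 or 2 or R5020 replicate 2 or 3 (edgeR adjusted p up to 0.0745). HDAC4 lost its call without ethanol replicate 1 or 2 or 3 or R5020 replicate 1 or 3 (edgeR adjusted p up to 0.171). Of the chromatin modifiers, 1 rose without ethanol replicate 1, and 2 fell without ethanol replicate 1 or 2 or R5020 replicate 3, and 1 rose and 4 fell with library totals alone. In 3 lists of housekeeping genes edgeR called 0 members over 12 libraries: cytosolic ribosomal proteins (44 tested, 17 up in the 6-library fit), the nuclear-encoded respiratory chain (34 tested, 6 up) and mitochondrially encoded genes (13 tested, 11 up). The mitochondrially encoded list had a median log2 fold change of 0.27 and a summed level of 268000 to 285000 CPM with ethanol and 300000 to 379000 CPM with R5020. Its part in the small rises and falls of other genes was not tested.

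Whether depletion changes the response was asked by setting it beside that of the siCT cells, which shares no library with it. Calls for both responses came from the same fit, with a shared estimate of the spread and the same genes tested. The lists of called genes are therefore not independent, and their overlap is to be read with that limit. R5020 raised 1345 genes in siCT cells (7.59% of those tested) and lowered 963 (5.43%). Of the genes that rose, 1081 were called in both, 65.6% of the siPRMT1 list and 80.4% of the siCT list, and of those that fell 651, 60.4% and 67.6%. The siCT log2 fold change had the same sign for 1613 of the 1648 genes that rose in siPRMT1 cells (97.9%) and for 1060 of the 1077 that fell (98.4%). The medians were 1.13 in siPRMT1 and 0.91 in siCT cells for the first list and -0.98 and -0.81 for the second, and since the lists were chosen in siPRMT1 cells, a larger size there follows in part from the choice. The 2 responses are given side by side for a few of the genes described above, and not for the gene lists. FKBP5 gave a log2 fold change of 3.50 with siPRMT1 and 3.62 with siCT, SGK1 5.75 and 6.49, and PGR -2.04 and -1.61. FOXA1 gave -1.94 and -1.17 and ESR1 -1.40 and -0.75, with differences of -0.77 ± 0.26 SE and -0.65 ± 0.18 SE that did not pass the test (edgeR adjusted p = 0.714 and 0.434).

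The difference of the 2 responses was tested directly as an interaction. It was called for 14 genes (0.079% of those tested), of which 13 carry gene names. MYB had a log2 fold change of -2.72 with siPRMT1 and -0.98 with siCT (interaction -1.73 ± 0.21 SE, edgeR adjusted p = 0.0203), and KITLG -2.51 and -0.83 (interaction -1.68 ± 0.25 SE, edgeR adjusted p = 0.0249). MTSS1, which binds actin and membranes, rose further with siPRMT1, from 1.97, 3.27 and 2.37 to 23.7, 20.4 and 19.1 CPM, a log2 fold change of 3.05 against 1.45. PKP2 rose with siPRMT1 (1.25) and gave -0.51 with siCT, where it was not called. SOX4, a factor of progenitor cells, rose in both, by 0.95 with siPRMT1 and 2.13 with siCT, and so did ZBTB7C, by 3.37 and 5.07. PCDH17, a protocadherin below 1 CPM in each siPRMT1 library, was the 1 gene called in opposite directions, 2.17 with siPRMT1 and -2.17 with siCT. The count of 14 was not stable: it was 0 without any 1 of the 6 siPRMT1 libraries or without siCT R5020 replicate 2 or 3, 32 without siCT ethanol replicate 3, and 140 without the siCT pair that stood apart.

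**Figure D5:**
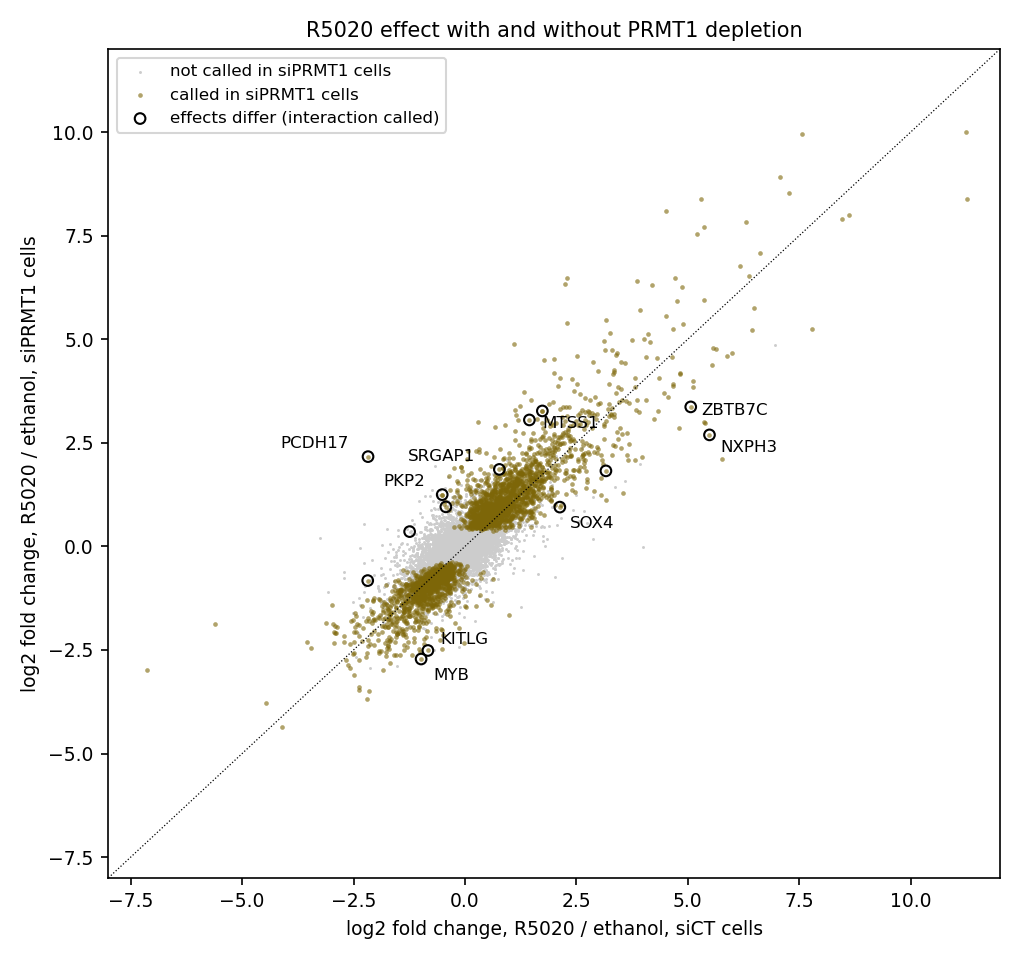
Log2 fold change of R5020 over ethanol in siPRMT1 cells (y axis) against that in siCT cells (x axis), 1 point per tested gene, with genes called in siPRMT1 cells in brown, the 14 genes with a called interaction circled and a dotted line of equal response. Most called genes lie in the upper right and lower left, and PCDH17 lies apart at 2.17 with siPRMT1 and -2.17 with siCT.

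In the authors' deposited table of the same comparison, 3691 genes had a positive and 2972 a negative log2 fold change at an adjusted p under 0.05, out of 19806 with an adjusted p. Of the 2725 genes called here, 2666 were called in the same direction in the authors' deposited table, 59 were not called there and 0 had the opposite sign.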

How the data were processed

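RNA-seq libraries of T47D cells were made with a commercial mRNA kit, per the labels' protocols. The submitters' processing notes name Bowtie2 2.3.2.2, HTSeq 0.9.1, DESeq2 and the build hg19, without their order. The strand setting of the counting is not given in the sources used here, so reads of overlapping and antisense genes, and of close copies such as metallothioneins, may be shared. The authors deposited raw counts per gene, and a table of their own comparison with log2 fold changes and adjusted p-values.

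From the counts, genes were filtered with filterByExpr, scaled by TMM and tested with edgeR 4.0.16 (quasi-likelihood test, R 4.3.3) with 1 mean per group over 12 libraries. Calls were made at a Benjamini-Hochberg adjusted p under 0.05 over the 17727 genes tested. SE is the absolute log2 fold change divided by the square root of F. Levels are CPM after TMM, with the SD over 3 libraries. The scripts were tested on simulated data. Alternatives used limma 3.58.1 and DESeq2 1.42.0.

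Named genes are PRMT1, PGR and ESR1, the 15 highest and 15 lowest called fold changes at a mean of at least 5 CPM with groups that do not overlap, up to 8 genes each way with 3 or fewer counts in the lower group, per list the 6 smallest adjusted p and called members against the majority, and genes called in the interaction. Other list members are given by value, and a few genes that meet these criteria are not reported here. Genes with clone names were passed over. The members and lists were chosen with earlier results of these data known. The promoter windows are RefSeq's (GRCh38.p14), a different build from the counts, and were joined by symbol.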

Additional observations from a re-analysis of the deposited data

Results flagged for a closer look

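The R5020 response differed between siPRMT1 and siCT cells by the test of the difference itself for 13 genes with names, of 14 called (0.079% of 17727). The values are interaction terms, the siPRMT1 log2 fold change less the siCT one. Positive terms were those of PCDH17 (4.34), PKP2 (1.76), MTSS1 (1.61), RASSF5 (1.60), C14orf182 (1.53), FAM43A (1.38), L3MBTL3 (1.36) and SRGAP1 (1.09). Negative terms were those of NXPH3 (-2.80), MYB (-1.73), ZBTB7C (-1.70), KITLG (-1.68) and SOX4 (-1.18). NXPH3, a neurexophilin, had a log2 fold change of 2.69 with siPRMT1 and 5.49 with siCT, and RASSF5, a Ras effector, 0.36 and -1.24. L3MBTL3, a reader of methylated histones, had -0.82 and -2.18, and SRGAP1, a regulator of small GTPases, 1.86 and 0.77. The siCT values rest on libraries of larger spread, among them the pair with a high mitochondrial share, whose part in these differences was not tested for each gene.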

How the results depend on the processing

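Against 1648 genes up and 1077 down, the 6 siPRMT1 libraries alone gave 4007 and 3806, the fit without the siCT pair that stood apart 2835 and 2391, and limma voom with quality weights 4193 and 3986. Testing against a fold of 1.5 gave 768 and 314, and library totals alone 897 up and 1167 down. Chosen after seeing the data, the 6-library fit with library totals alone gave 2477 and 6215, and with a fold of 1.5 it gave 1202 and 727. Leaving out 1 siPRMT1 library gave 1168 to 1311 up and 616 to 663 down, where fewer libraries enter the fit. DESeq2 (1774 and 1363), DESeq2 size factors (1566 and 1144), no filter (1732 and 1070) and a 1 CPM filter (1514 and 1006) stayed within 1.5 times. The 14 interaction calls became 140 without the siCT pair, 3 with library totals alone, 88 with DESeq2, 29 with no filter and 0 to 32 without 1 library. Allowing 1 changed base raised the share of promoters with the element from 0.39% to 8.15%. Same-numbered libraries of the 2 groups did not deviate together (correlations of -0.197, -0.392 and -0.238 over 10672 genes) and were not treated as pairs. Differently numbered ones gave -0.109 to 0.328. Between the siCT groups same numbers gave -0.627, 0.365 and -0.861, and different numbers -0.829 to 0.942, the highest for ethanol replicate 3 with R5020 replicate 1. Such correlations cannot show whether the cells were handled in numbered pairs. A replicate block groups libraries by these numbers, so it fits the data only if the numbers mark true pairs. It gave 1427 up and 851 down, 3672 and 3490 in the 6-library fit, and 0 interaction calls. Of 239 named genes called, 194 stayed called in every fit without 1 siPRMT1 library, 17 lost the call in all 6, and 57 lost it with library totals alone. No named gene changed sign while called in any alternative run.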
